A study of Mus musculus with 2 samples.

Results

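The genes described here are the endocrine granule processing and fate genes Scg2, Scg3, Scg5, Pcsk1, Pcsk1n, Cpe, Tph1, Ddc, Neurod1 and Isl1. They were chosen by name, as every array probe whose gene name is one of these 10, which gave 16 of the 41174 gene probes and 10 of 27725 gene names. Their RNA was measured in sorted cells of the mouse pylorus, the lower end of the stomach next to the duodenum. GFPhigh cells, those with high green fluorescent protein (GFP), were set against GFPlow cells, those with low GFP. Both populations carried the Lgr5-EGFP-ires-CreERT2 knock-in, in which the promoter of the stem cell marker Lgr5 drives GFP, and the pyloric tissue of 20 mice was pooled before the sort. The allele is thus shared by both, the low population was selected for low GFP and not for its absence, and the sources used here give no age or sex. The RNA of both populations was hybridised together on 2 Agilent two-colour arrays, where GFPhigh carried Cy3 on array 1 and Cy5 on array 2. The labels name no separate RNA preparations, so the arrays are read here as repeats of 1 comparison and no p-value is given. The SD between them is then technical error, and it would hold the spread between preparations as well if the arrays did not share their RNA.

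Endocrine cells of the stomach store peptide hormones and amines in dense-core granules. Granins such as Scg2 and Scg3 help to build the granule, the convertase Pcsk1 cuts prohormones at paired basic residues, and carboxypeptidase E (Cpe) trims the residues left at the cut end. Scg5 is a chaperone of the sister convertase Pcsk2, and Pcsk1n encodes proSAAS, an inhibitor of Pcsk1. Tph1 and Ddc catalyse the consecutive steps from tryptophan to serotonin, which enterochromaffin cells store in granules. Neurod1, a basic helix-loop-helix factor, and Isl1, a LIM homeodomain factor, direct endocrine differentiation in the mouse gut and pancreas.

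These genes are read by 60-base probes, and for Pcsk1, Tph1, Ddc and Pcsk1n detection differed between probes of the same gene. The following probes are shown because they include both measured and unmeasured stretches of these genes. At least 1 reading frame is open through each, which does not by itself place a probe in coding sequence. They are given 5′ to 3′ with their position in the mm9 build named in the file headers. Exon numbers are not given, because no annotation of mm9 was used.
Ddc, start at base 313 of the transcript, chr11:11776262-11776321, minus strand: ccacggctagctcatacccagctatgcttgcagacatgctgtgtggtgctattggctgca
Ddc, start at base 1366, chr11:11715320-11715379, minus strand: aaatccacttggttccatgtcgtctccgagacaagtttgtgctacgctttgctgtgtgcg
Cpe, start at base 1367, chr8:67072015-67073749, minus strand: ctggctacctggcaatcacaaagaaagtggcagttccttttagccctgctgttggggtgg
Pcsk1, start at base 641, chr13:75236748-75243404, plus strand: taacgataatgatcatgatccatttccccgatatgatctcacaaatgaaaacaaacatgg
Tph1, start at base 844, chr7:53912586-53912645, minus strand: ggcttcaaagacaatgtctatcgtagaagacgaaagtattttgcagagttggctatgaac
The Cpe probe spans 1735 bases of the genome and the Pcsk1 probe 6657 bases, so each of them joins parts of the transcript that an intron separates. The 3′ probes of Pcsk1, Tph1 and Scg3, which carry the GFPlow signals described next, lie at chr13:75269727-75269786 on the plus strand, chr7:53902606-53902665 on the minus strand and chr9:75491320-75491379 on the minus strand.

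Of the 6 members that could be measured, Tph1 was at least 2-fold higher in GFPlow cells on both arrays and the other 5 were not 2-fold apart on both. Cpe, Tph1, Pcsk1, Ddc and Scg3 had negative log2 ratios of GFPhigh over GFPlow on both arrays, as did 36.5% of all measured genes, and Pcsk1n had ratios of opposite sign. A gene counted as measured if, on each array, the brighter population stood well above background, a status that the scanner software gives each spot. Scg2, Scg5, Neurod1 and Isl1 did not meet this and gave no ratio that can be read as a difference. The median log2 ratio of the 6 measured members was -0.97, with -0.80 on array 1 and -0.98 on array 2, beside -0.06 over all 7828 measured genes. Scg3, Pcsk1, Tph1 and Ddc passed the filter through GFPlow alone, Ddc with GFPhigh above background on array 1 only. That favours negative ratios, so this median and the negative ratios on both arrays describe the genes that passed. With both populations required above background on both arrays, 2 members remained, Cpe and Pcsk1n, with a median of -0.58. In this bulk RNA, fewer endocrine cells and less RNA per endocrine cell cannot be told apart.

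**Figure D1:**
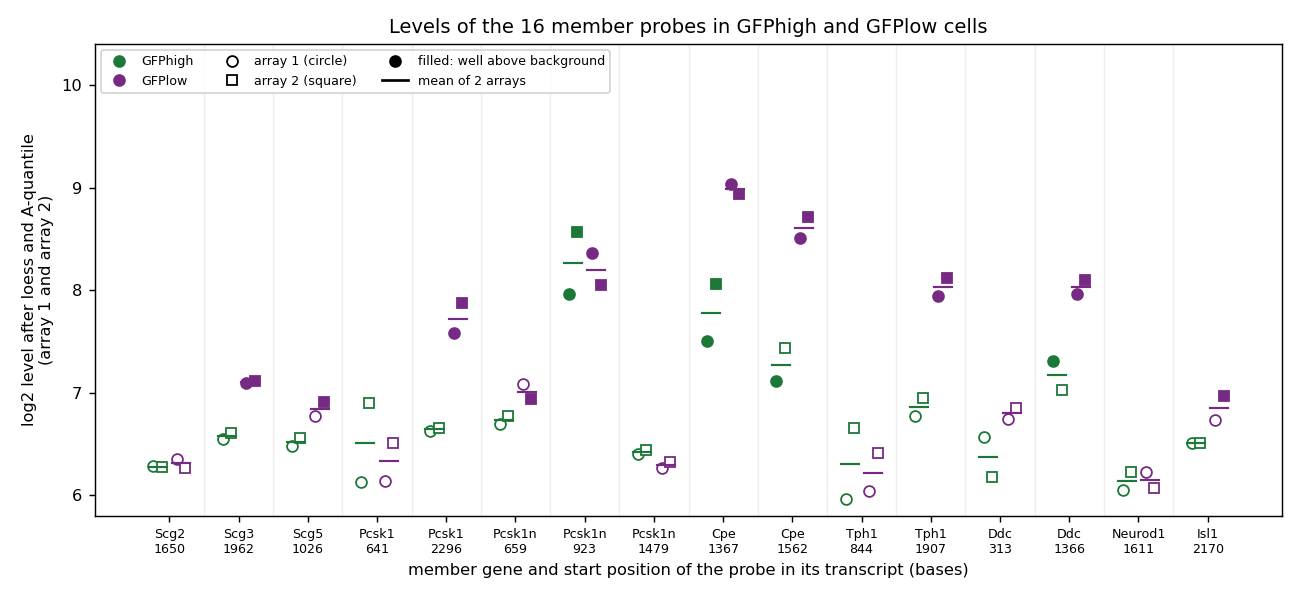
Log2 normalised level (vertical axis) of the 16 probes of the 10 genes, with GFPhigh in green to the left of GFPlow in purple, circles for array 1, squares for array 2 and filled symbols where the channel was well above background. Each short line is the mean of both arrays. Filled purple symbols on both arrays stand for 7 probes and filled green symbols on both arrays for 2, the Cpe probe at base 1367 and the Pcsk1n probe at base 923. Heights are comparable only within a probe.

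Detection itself differed between the populations. On both arrays, 2 of the 16 member probes stood well above background in GFPhigh and 7 did so in GFPlow, while 6 probes were above it in no channel. Over all 41059 probes left after outlier spots were removed, the shares detected on both arrays were 18.1% for GFPhigh and 24.3% for GFPlow. The 3′ probes of Scg3, Pcsk1 and Tph1 were above background on both arrays in GFPlow and on neither array in GFPhigh. That combination was found for 3 of the 7 member probes detected in GFPlow, and for 343 of all 9966 probes detected in GFPlow (3.44%), which is 0.835% of the 41059. The reverse combination was found for 0 member probes and for 0.0292% of all. The channels also differed in sensitivity: 28.6% and 18.7% of gene spots were above background in GFPhigh on arrays 1 and 2, against 25.1% and 31.7% in GFPlow, so that each population had the larger share on the array where it was in Cy3. Member probes followed the same order, with 4 and 2 detected in GFPhigh on arrays 1 and 2, against 7 and 10 in GFPlow. Requiring detection on both arrays removed the 3 probes that were seen only in GFPlow on array 2, those of Scg5 and Isl1 and the Pcsk1n probe at base 659.

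Among the granins, Scg3, which binds chromogranin A and cholesterol-rich granule membrane, was above background in GFPlow and not in GFPhigh. Its log2 level was 6.55 and 6.61 in GFPhigh on arrays 1 and 2, against 7.09 and 7.11 in GFPlow. Both GFPhigh values lay below both GFPlow values and neither was well above background. The log2 ratio was -0.55 and -0.50, a mean of -0.53 ± 0.03 (SD, 2 arrays), and because GFPhigh was not measured the difference is a bound, at least 1.34-fold higher in GFPlow.

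Scg2, which encodes secretogranin II, the precursor of secretoneurin, was above background in neither population. Its log2 level was 6.28 and 6.27 in GFPhigh, against 6.35 and 6.26 in GFPlow, and the groups overlapped. Its background-subtracted intensity was 51.8 and 41.3 in GFPhigh and 43.8 and 57.1 in GFPlow. Spots without a target, 153 per array, had median intensities of 51.1 and 38.8 in GFPhigh and 36.1 and 55.1 in GFPlow, so the Scg2 probe was about as bright as spots that detect nothing. A difference in Scg2 was not detectable at this sensitivity.

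Pcsk1, the convertase that starts the cleavage of prohormones such as progastrin and proghrelin, passed 2-fold towards GFPlow on 1 of the 2 arrays by its 3′ probe. This probe, at base 2296 of the transcript, had a log2 level of 6.63 and 6.65 in GFPhigh, against 7.58 and 7.87 in GFPlow. The groups did not overlap and GFPhigh was not above background on either array. The log2 ratios of -0.95 and -1.22 averaged -1.08 ± 0.19, and the bound was at least 2.06-fold higher in GFPlow. Array 1 fell just short of a 2-fold difference, which is a log2 ratio of -1 or lower.

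The further Pcsk1 probe, at base 641, was above background in no channel. It read 6.13 and 6.90 in GFPhigh, against 6.14 and 6.51 in GFPlow, with overlapping groups. The same arrangement, a detected 3′ probe and an undetected 5′ probe, held in GFPlow for Pcsk1, Tph1 and Ddc, the 3 members that have such a pair at least 500 bases apart on 1 RefSeq transcript. Pcsk1n showed the opposite, with its probe at base 923 detected in every channel and that at base 1479, which the files assign to another cDNA record, in none. Over all 3315 such pairs on the array, 845 had only the 3′ probe detected in GFPlow on both arrays and 274 only the 5′ probe, so that the 3′ probe was the detected one in 75.5% of the unequal pairs, and in GFPhigh the share was also 75.5%. The part of labelling in this pattern was not tested.

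The helper proteins of the convertases were less clear. Scg5, the chaperone of Pcsk2, had log2 levels of 6.48 and 6.56 in GFPhigh, against 6.77 and 6.91 in GFPlow. The GFPlow values were both higher than the GFPhigh values, but only GFPlow on array 2 was well above background, with an intensity of 118 against 68.5 on array 1. Its log2 ratio of -0.29 and -0.36 is therefore given as a value and not counted as measured.

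Pcsk1n, the source of the Pcsk1 inhibitor proSAAS, was the one measured member with no common direction. Its bright probe, at base 923, was above background in every channel and had log2 levels of 7.96 and 8.57 in GFPhigh, against 8.36 and 8.05 in GFPlow. The groups overlapped, and array 1 gave a log2 ratio of -0.40 where array 2 gave 0.52 (mean 0.06 ± 0.65). This SD exceeded the mean, and 60.0% of measured genes had a ratio at or below it. The probe at base 659 gave ratios of -0.39 and -0.17 and the probe at base 1479 gave 0.14 and 0.12, neither of them measured. When the arrays were centred on their medians instead of by loess the mean turned to -0.43. Spike-in centring, which subtracted a common 0.78 from the loess ratios of both arrays, turned the mean to -0.72.

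Cpe, the exopeptidase that acts after the convertases, was measured by both of its probes, with negative ratios on both arrays. The probe at base 1367, the brighter one, had log2 levels of 7.50 and 8.06 in GFPhigh, against 9.03 and 8.94 in GFPlow, with every channel above background. GFPhigh was below GFPlow on both arrays and the groups did not overlap. The log2 ratios were -1.53 and -0.88, a mean of -1.21 ± 0.46, which is 2.31-fold higher in GFPlow.

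The probe at base 1562 of Cpe gave the same direction with a smaller spread between arrays. Its log2 level was 7.11 and 7.43 in GFPhigh, against 8.51 and 8.71 in GFPlow, again without overlap, and GFPhigh was above background on array 1 only. The ratios of -1.40 and -1.29 averaged -1.34 ± 0.08, or 2.54-fold higher in GFPlow. Both arrays of this probe passed 2-fold, whereas array 2 of the brighter probe, which represents the gene, did not. Whether Cpe is counted as 2-fold higher in GFPlow therefore depends on the probe.

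**Figure D2:**
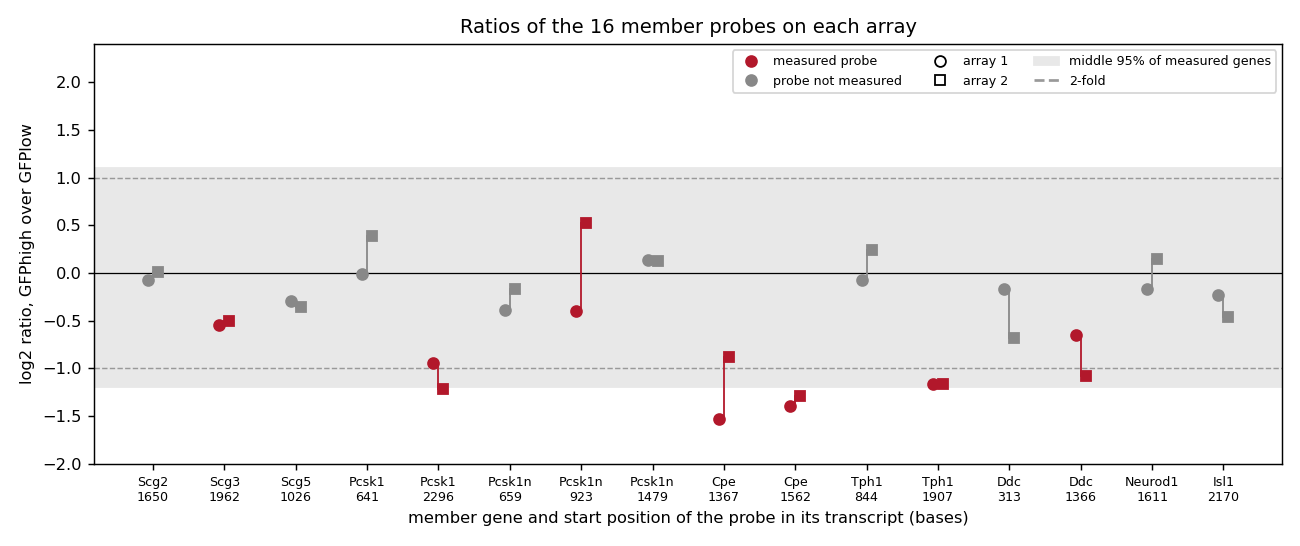
Log2 ratio of GFPhigh over GFPlow (vertical axis) for each of the 16 probes, circles for array 1 and squares for array 2, in red where the probe was measured and grey where it was not. The grey band is the middle 95% of measured genes, with its lower edge at -1.20, and dashed lines mark 2-fold. Both arrays lie below the lower dashed line for the Cpe probe at base 1562 and the Tph1 probe at base 1907 only, and the arrays of the Pcsk1n probe at base 923 lie on opposite sides of 0.

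Of the serotonin pathway genes, Tph1 passed 2-fold towards GFPlow on both arrays and Ddc on 1. Tph1, the rate-limiting enzyme of serotonin synthesis outside the nervous system, had log2 levels of 6.77 and 6.95 in GFPhigh, against 7.94 and 8.12 in GFPlow, by its probe at base 1907. The groups did not overlap, and neither GFPhigh channel was well above background. The ratio was -1.17 on each array, a mean of -1.17 ± 0.00. The bound, here equal to the ratio itself, was at least 2.25-fold higher in GFPlow under this processing. The Tph1 probe at base 844 was above background in no channel, with ratios of -0.08 and 0.24.

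Ddc, the decarboxylase that completes serotonin synthesis and also makes dopamine, had log2 levels of 7.31 and 7.03 in GFPhigh, against 7.96 and 8.10 in GFPlow, by its probe at base 1366. GFPhigh was lower on both arrays, without overlap, and was above background on array 1 only. The ratios of -0.65 and -1.08 averaged -0.86 ± 0.30, or 1.82-fold higher in GFPlow. The probe at base 313, shown above with it, was above background in no channel and gave -0.17 and -0.68.

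A gene was counted as different if each array showed at least 2-fold in the same direction. By this rule 1 of the 6 measured members, Tph1, was counted as higher in GFPlow, where 212 of all 7828 measured genes (2.71%) were, and 0 of 6 were counted as higher in GFPhigh, where 140 genes (1.79%) were. At 1.5-fold, 4 members (Cpe, Tph1, Pcsk1 and Ddc) were higher in GFPlow on each array, beside 7.45% of all measured genes, and 0 were higher in GFPhigh, beside 5.6%. No overlap between the groups, with GFPhigh the lower, was seen for 6 of the 7 measured member probes. The share of all 9497 measured probes was 34.4%. With GFPhigh the higher, it was seen for 0 of 7 and for 24.8% of all. GFPhigh was detected on each array for 2 of these 7, the Cpe probe at base 1367, without overlap, and the Pcsk1n probe, with overlap. The rest passed the filter through GFPlow alone, as did Tph1, Pcsk1 and Ddc in the gene counts. That favours a lower GFPhigh, so these member counts describe the genes and probes that passed. Among all measured genes, ratios as low as that of Cpe or lower were held by 2.49% and of Ddc by 5.65%, while the ratios of Tph1, Pcsk1 and Scg3 are bounds and have no rank. Over all measured probes, the difference between the ratios of array 1 and array 2 had an SD of 0.56. This is the spread of a difference, so it is not on the scale of the ± values, which are SDs of 2 arrays.

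The size of these ratios depended on how the background was treated, and most members are dim. In the authors' deposited table, which holds the processed ratios of the scanner software, the Tph1 probe at base 1907 has log2 ratios of -2.16 and -2.67 and the Pcsk1 probe at base 2296 has -2.56 and -2.87. The same deposited table of the authors gives Scg3 -2.08 and -1.91, and it is empty for Scg2 and Neurod1. It gives the Pcsk1 probe at base 641 a ratio of 1.24 on array 2 and none on array 1. The Pcsk1n probe at base 923 has -0.51 and 0.80 there. Of the members not measured here, Scg5 has -1.83 and -0.99 and Isl1 has -0.94 and -1.33. For the dimmer members the deposited ratios are larger in size than those above, in which an offset of 50 intensity units was added before the logarithm. With the processed signals 5 members (all measured ones but Pcsk1n) passed 2-fold in GFPlow on both arrays, beside 6.51% of all genes, with an offset of 10 there were 3 beside 3.91%, and without background correction there were 0 beside 1.86%. The values of the deposited table gave 5 beside 6.47%, the mean over a gene's measured probes 2 beside 2.71%, the 3′-most measured probe 2 beside 2.67%, array 2 alone 3 of 8 measured members beside 5.49%, array 1 alone 2 beside 4.2%, and the demand that both populations be above background 0 beside 2.25%. Without a filter on dim probes it was 1 beside 0.766%. Counted as higher in GFPhigh were 0 members in each of these 10 alternatives, beside 4.48%, 2.47%, 1.2%, 4.48%, 1.76%, 1.74%, 4.07%, 3.74%, 2.04% and 0.506% of all genes in the order just given.

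The scaling between the channels mattered as well. With median centring in place of loess, 10 genes (0.122%) were counted as higher in GFPhigh and 214 (2.61%) as higher in GFPlow, and the median of all genes moved to -0.49. With spike-in centring the counts were 21 (0.256%) and 1630 (19.9%), and the median of all genes was -0.81. The median of the measured members was -1.28 under the median centring, with 2 members counted in GFPlow, and -1.76 under the spike-in centring, with 5. Cpe, Tph1, Pcsk1, Ddc and Scg3 had a mean ratio below 0 under every alternative that measured them, 12 for Cpe and 11 for each of the others. Of these, Tph1, Pcsk1 and Scg3 could be measured only with a negative ratio, except where the filter on dim probes was lifted. The same held for Ddc, except also with array 1 alone. For Tph1, Pcsk1, Scg3 and Ddc the common sign therefore largely follows from the filter.

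**Figure D3:**
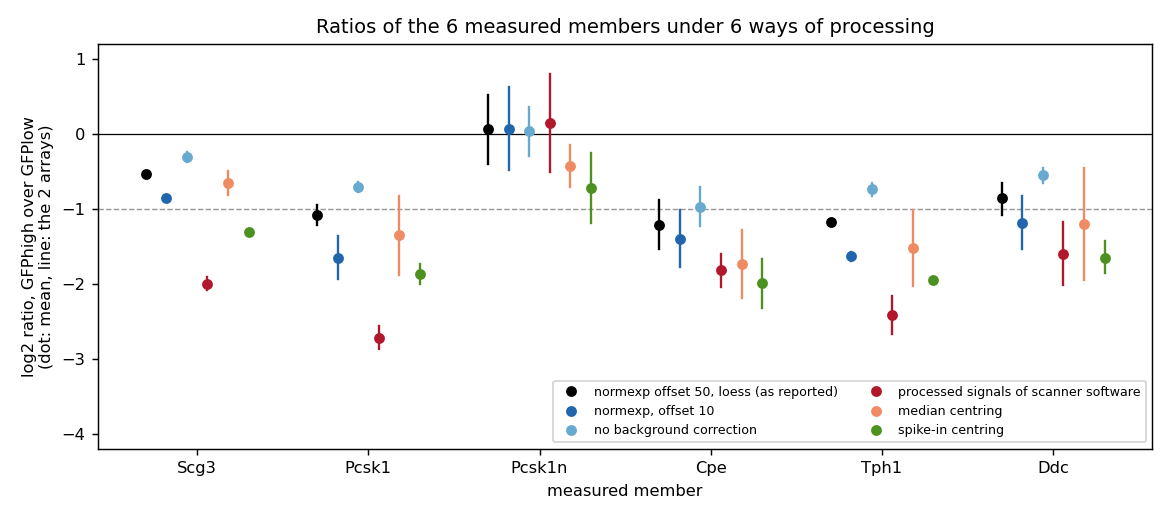
Log2 ratio of GFPhigh over GFPlow (vertical axis) of the 6 measured members under 6 ways of processing, with a dot for the mean and a line joining the 2 arrays. The dashed line marks 2-fold higher in GFPlow. Scg3, Pcsk1, Cpe, Tph1 and Ddc lie below 0 in every case, which the filter required of all of these but Cpe. Tph1 lies between -2.41 and -0.74, and Pcsk1n lies on either side of 0.

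The fate factors gave little or no signal. Neurod1, which the secretin and cholecystokinin cells of the mouse gut need, had log2 levels of 6.05 and 6.23 in GFPhigh, against 6.23 and 6.07 in GFPlow. The groups overlapped and no channel was above background. Its intensity was 41.5 and 39.1 in GFPhigh and 37.8 and 46.5 in GFPlow, near that of the spots without a target. Its RNA was not detectable by this probe in either population.

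Isl1 had 10 copies of its probe on each array, of which 9 were used on array 1 and 10 on array 2. The mean log2 level was 6.51 and 6.51 in GFPhigh, against 6.73 and 6.97 in GFPlow. Both GFPhigh means were lower than both GFPlow means, but 0 spots were well above background in GFPhigh on either array, and 0 on array 1 and 8 on array 2 in GFPlow. The ratio was -0.23 with an SD of 0.05 over the spots of array 1, where it ran from -0.31 to -0.15. On array 2 it was -0.46 with an SD of 0.31, with a range of -0.89 to 0.05. Over the 245 probes with 10 spots, the median SD between spots was 0.12 on array 1 and 0.15 on array 2.

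The Isl1 spots were also read against the spots without a target. On array 1 the median was 71.3 in GFPhigh and 66.7 in GFPlow, and 95% of the spots without a target lay at or below 63.8 and 50.7 in these channels. On array 2 the median was 44.3 in GFPhigh and 123 in GFPlow, against limits of 54.4 and 71.8. Every used GFPlow spot lay above its limit, from 54.8 to 73.2 on array 1 and from 108 to 147 on array 2. GFPhigh spots lay on either side of theirs, from 55.6 to 74.0 on array 1 and from 30.2 to 72.9 on array 2, and spots on 1 array are not separate samples.

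**Figure D4:**
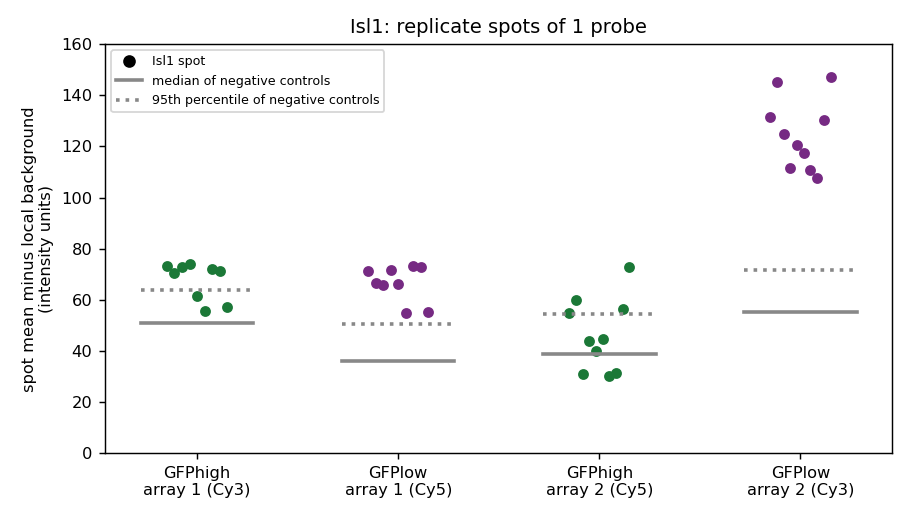
Background-subtracted intensity (vertical axis, linear) of each used spot of the Isl1 probe, with GFPhigh to the left of GFPlow on each array. The solid line is the median and the dotted line the 95th percentile of the 153 negative control spots of that channel. The GFPhigh spots of array 2 lie between 30.2 and 72.9, on either side of the dotted line, and the GFPlow spots of array 2 between 108 and 147, all above it.

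The promoters of the members were searched for the letters TGACGTCA, the cAMP response element (CRE), because hormone and granin genes are known targets of CREB. In the 250 bases before the RefSeq start (GRCm38.p6, another build than that of the probes), on both strands, these letters were found for 2 of the 9 members with an entry, Scg2 and Pcsk1, and in 1.55% of all 32851 windows. The motif is printed in capitals in the last 120 bases before the start, from which its first base lies 68 bases away in Scg2 and 78 in Pcsk1.
Scg2, chr1:79440027-79440146, minus strand: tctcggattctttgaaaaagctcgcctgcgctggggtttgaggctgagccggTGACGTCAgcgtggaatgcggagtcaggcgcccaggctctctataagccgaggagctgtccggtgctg
Pcsk1, chr13:75089737-75089856, plus strand: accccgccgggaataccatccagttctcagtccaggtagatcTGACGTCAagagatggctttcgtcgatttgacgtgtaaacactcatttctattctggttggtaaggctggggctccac
Of these genes, Scg2 was above background in neither population and Pcsk1 in GFPlow by its 3′ probe. The shorter letters TGACG, which TGACGTCA contains, were found for 6 of 9 members and in 17.8% of windows, and the E-box CANNTG, the kind of site that Neurod1 binds, for 5 of 9 and in 66.2%. A match describes the sequence and does not show binding.

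Genes related to the members by role were set beside them. Over all measured genes, 2.71% were counted as higher in GFPlow and 1.79% as higher in GFPhigh, and the median was -0.06. Under the median centring these values were 2.61%, 0.122% and -0.49, and under the spike-in centring 19.9%, 0.256% and -0.81. As with the members, a gene detected in GFPlow alone could be measured only with a negative ratio. Of 4 other granins and granule cargo genes on the array, all 4 were measured, with 2 counted as higher in GFPlow and none in GFPhigh. The median of the list was -0.92. The counted genes were Chgb at -2.89 ± 0.51 and Chga at -1.46 ± 0.15, the chromogranins that form the bulk of the granule core. Resp18 had -0.39 ± 0.10 and Nucb2, the nesfatin precursor, 0.73 ± 0.09, which moved to -0.05 under the spike-in centring. Unlike Scg3, the chromogranins were above background in GFPhigh as well.

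Of 15 other prohormone processing enzymes on the array, 10 were measured, with 2 counted as higher in GFPhigh and 0 in GFPlow. Of the 10, 3 had ratios below 0 and the median was 0.63. Under the spike-in centring 7 were below 0 and the median was -0.16, beside -0.81 over all measured genes. There 2 of the 10 were counted as higher in GFPlow, beside 19.9% of all genes. Pcsk2, the sister convertase that Scg5 assists, had -0.97 ± 0.10. The enzymes higher in GFPhigh were Furin, the convertase of the constitutive secretory pathway in most cells, at 2.21 ± 0.10, and Cpn1, a circulating carboxypeptidase, at 1.57 ± 0.31. Furin had 1.41 under the median centring and 1.43 under the spike-in centring, and Cpn1 had 0.77 and 0.79, so that 0 and 1 of the processing enzymes were still counted as higher in GFPhigh. Ctsl, a lysosomal protease also found in granules, had 0.93 ± 0.16, and 0.15 under either centring.

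Of 19 other genes of amine synthesis, storage and breakdown on the array, 8 were measured, 1 was counted as higher in GFPlow and none in GFPhigh. The median was -0.09. Maob, a monoamine oxidase, had -1.35 ± 0.20 and its relative Maoa -0.67 ± 0.22, the second as a bound of at least 1.59-fold higher in GFPlow. Gch1, which starts the synthesis of the cofactor that Tph1 needs, had -0.70 ± 0.16, a bound of at least 1.62-fold, and Spr, which completes it, had 0.37 ± 0.20, turning to -0.31 and -0.41 under the median and spike-in centrings. The amine transporters Slc18a1 and Slc18a2, named after their values were seen because they load serotonin into granules, were above background in no channel.

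None of the 7 measured genes among 29 other endocrine transcription factors was counted in either direction, and their median was -0.02. Neurog3, named after its values were seen as the factor upstream of Neurod1, was above background in GFPlow on both arrays and in GFPhigh on neither, with a ratio of -0.20 ± 0.06, a bound of at least 1.15-fold higher in GFPlow. Foxa2 had 0.30 ± 0.37 and Nkx6-3 0.24 ± 0.48, and under the spike-in centring they turned to -0.49 and -0.54.

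Of 14 partners and antagonists of Neurod1 and Isl1, 10 were measured, 1 was counted as higher in GFPhigh and 0 in GFPlow. The median was 0.19, and it turned to -0.40 and -0.60 under the median and spike-in centrings. Tcf12, an E protein that dimerises with Neurod1, had 1.21 ± 0.24, and 0.64 and 0.42 under the median and spike-in centrings, where it was no longer counted. Id1, which blocks such dimers, had -1.01 ± 0.90, an SD nearly as large as the mean, Id4 had 0.69 ± 0.35 and Tcf4 0.49 ± 0.30, and under the spike-in centring Id4 and Tcf4 turned to -0.09 and -0.30.

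Granule membrane and docking genes were seldom detected, as were several members. Of 12 genes, 3 were measured and 0 were counted in either direction, and the median was 0.25. It turned to -0.24 and -0.53 under the median and spike-in centrings. There 1 gene was counted in GFPlow under each, beside 2.61% and 19.9% of all genes. Syt13, an atypical synaptotagmin, had -1.12 ± 0.22, a bound of at least 2.14-fold higher in GFPlow with array 2 just short of 2-fold. Cyb561 had 0.44 ± 0.08 and Ica1 0.25 ± 0.00, which turned to -0.35 and -0.53 under the spike-in centring.

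Of 15 gut peptide hormones on the array, the cargo on which Pcsk1 and Cpe act, 7 were measured, 3 were counted as higher in GFPlow and 0 in GFPhigh, and the median was -0.87. Ghrl, Sst and Pyy had -2.82 ± 0.71, -1.68 ± 0.03 and -1.57 ± 0.03, and Gast had -0.87 ± 0.54.

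**Figure D5:**
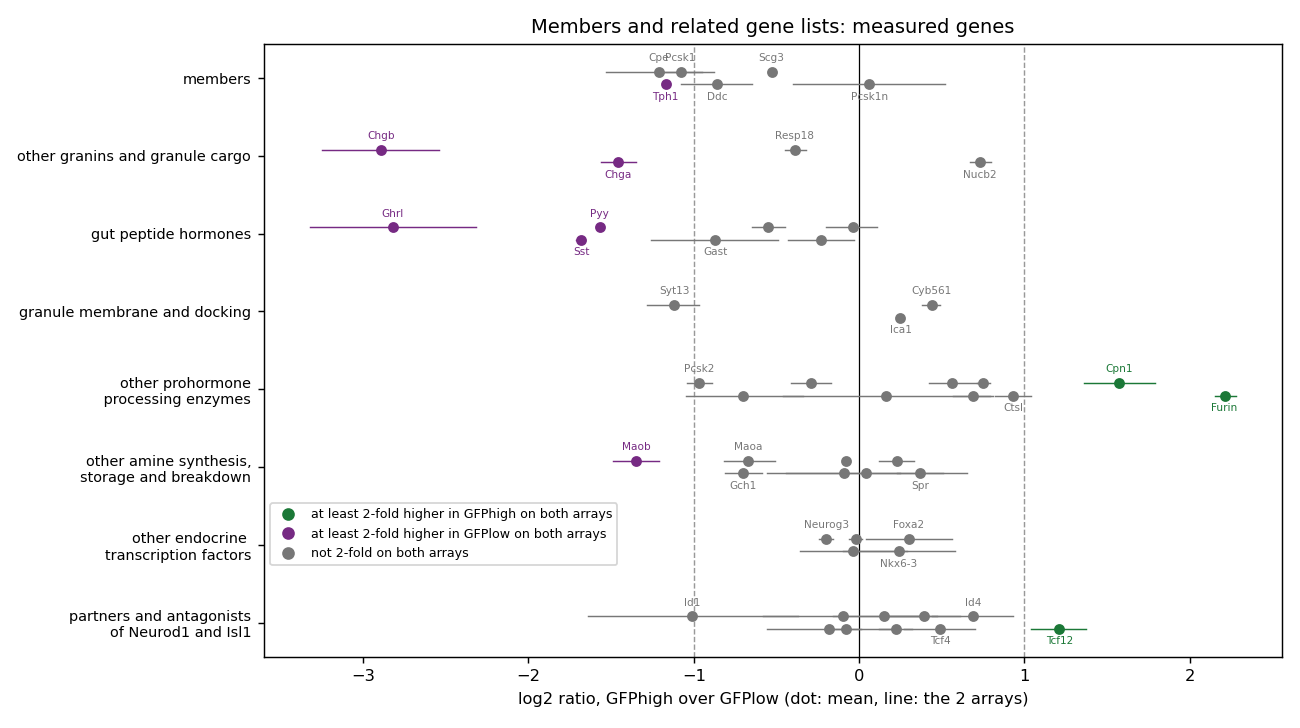
Mean log2 ratio of GFPhigh over GFPlow (horizontal axis, dots) of the measured genes of the 10 members and of 7 related lists, without the genes that are not reported here and with names for those the text names, with a line joining the 2 arrays. Dashed lines mark 2-fold, green marks genes that passed it towards GFPhigh on each array and purple those that did so towards GFPlow. The members and the hormones lie mostly below 0, a sign that the filter favours for genes detected in GFPlow alone. The processing enzymes run from Pcsk2 at -0.97 to Furin at 2.21.

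Markers of the tissue and of other cells that make such genes were read on the same arrays. All 10 epithelial markers were measured, with 2 counted as higher in GFPhigh, 1 in GFPlow and a median of 0.11, which turned to -0.70 and -0.67 under the median and spike-in centrings. The markers named for their signal were Gkn3 at 1.91 and 4.03 on the arrays, Tff2 at 1.83 ± 1.22 and Krt18 at 0.09 ± 0.68, and Krt18 turned to -1.04 under the median centring. Krt19, named after its values were seen, was the one counted in GFPlow, at -2.23 ± 0.04. The sort marker Lgr5 had log2 levels of 9.85 and 9.47 in GFPhigh, against 7.52 and 7.23 in GFPlow, a ratio of 2.28 ± 0.07. Mast cells also express Tph1, and their markers were above background in no channel for 10 of 10 genes, as were 8 of 8 leukocyte markers. Of 10 neuronal markers 8 were in no channel, and Tubb3 and Uchl1 had -0.17 ± 0.28 and -0.38 ± 0.04, where Uchl1 was above background in GFPlow and not in GFPhigh. The summed intensity of the neuronal probes was 838 and 601 in GFPhigh, against 669 and 1054 in GFPlow, and that of the member probes was 1465 and 1032 in GFPhigh, against 2080 and 3867 in GFPlow. Of 9 mesenchymal and muscle markers 6 were in no channel, and Acta2, Col1a2 and Ano1 had -0.55 ± 0.16, 0.60 ± 0.75 and -0.72 ± 0.14. Ano1 was above background in GFPlow and not in GFPhigh, a bound of at least 1.64-fold higher in GFPlow. Col1a2 turned to -0.19 under the spike-in centring. The summed intensity of the mesenchymal and muscle probes was 1760 and 1128 in GFPhigh, against 1548 and 2412 in GFPlow. These sums are over 14 neuronal, 16 member and 20 mesenchymal and muscle probes. The 15 probes of the undetected leukocyte markers summed to 900 and 618 in GFPhigh and to 700 and 900 in GFPlow. Such sums therefore include signal without a detected target and are not amounts of RNA. The part of mast cell, leukocyte, neuronal and mesenchymal RNA in the members' ratios was not tested.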

How the data were processed

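Per the file headers, the deposited scanner files give each spot's mean intensity and, for the background around it, the median intensity. The authors also deposited processed intensities and their log10 ratio with a p-value from the scanner's single-array error model, per the file headers. A deposited value table was found to hold the same log10 ratios in the direction GFPhigh over GFPlow (differences of at most 0.0050 log10, medians of 0.0188 and -0.0458, empty at 22558 and 24241 spots where the scanner ratio was 0). The headers name Feature Extraction 10.5.1.1, the submitters' processing notes version 9.5.3. Per the labels, 150 ng of RNA was amplified and labelled.

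The background was corrected by normexp with an offset of 50 (limma 3.58.1, R 4.3.3), and signals were normalised by loess within each array, control spots at weight 0. Negative controls kept a net signal, so the offset and normexp pull dim ratios towards 0. Non-uniform and population outlier spots were left out, no gene spot was saturated, and repeated spots were averaged per probe. A probe counted as measured where at least 50% of its spots were well above background in the brighter population on both arrays, and the brightest measured probe stood for its gene. Levels per channel followed Aquantile normalisation. Where 1 population was below background on both arrays, the fold is a bound: the brighter mean against the mean of, per array, the higher of the dim level and the lowest level well above background. Such a bound holds within this processing only. Without background correction the ratios of Tph1, Pcsk1 and Scg3 were smaller than their bounds, at -0.74, -0.71 and -0.31. The steps were tested on simulated data, in which only probes brighter than most member probes were changed. That test does not cover the dim range of most members. Of 41174 probes, 8075 kept the file's name and the rest took RefSeq symbols (GRCm38.p6). All 10 members, Lgr5, up to 4 genes of each related list (counted ones first, then the largest ratios) and up to 3 measured markers of each kind were named, except that some genes are not reported here. Alternatives changed the background correction, offset, signals, centring, filter, probe rule, threshold and arrays. The members, lists and motifs were chosen with earlier results of these data known. The number of arrays limits the precision.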

Additional observations from a re-analysis of the deposited data

How the results depend on the processing

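Of the 2 counts and the median of the measured members, 17 alternative values stayed close to those reported and 22 moved. Only the median can turn in direction, and it stayed negative, which the filter on dim probes favours where it is applied. The count of members higher in GFPhigh was 0 throughout and makes up most of the values that stayed close. The count higher in GFPlow, 1 as reported, was 0 without background correction and with both populations required above background (2 genes), 2 with the median centring, with the mean over measured probes and with the 3′-most measured probe (chosen after seeing the data), 3 with offset 10, 4 at 1.5-fold, and 5 with the processed signals, the value table and the spike-in centring. Leaving out an array gave 2 to 3. The median was -0.63 without background correction, -1.29 with offset 10, -1.91 with the processed signals and with the value table, -1.28 and -1.76 with the median and spike-in centrings, -0.43 with no filter on dim probes (10 genes), -0.58 with both populations above background, and -0.80 to -0.69 with an array left out. It was -0.95 with bounds in place of ratios. For all genes, the counts higher in GFPhigh and GFPlow were 352 and 511 with the processed signals. The fewer genes of the stricter filter and the added genes of the open one follow from their construction, and for the other settings the cause was not tested. Tph1 passed 2-fold in 10 of 11 alternatives, Cpe in 8 of 12, Pcsk1 in 5, Ddc in 4 and Scg3 in 3 of 11 each, and Pcsk1n in 0 of 12. These alternatives are not independent, since the processed signals and the value table hold the same ratios. For Tph1, the open filter, both probe rules and either single array left the ratio at -1.17, so they could not change its count. Without background correction it was -0.74 and did not pass. Pcsk1n ran from -0.72 to 0.52. No paired analysis was possible because the replicate numbers mark dye-swapped arrays, read here as the same 2 RNA samples, and no test was run. Animal-to-animal spread was not measured, and members near background have no ratio that these arrays resolve.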
